A study of Mus musculus with 4 samples.

Results

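Guanylate-binding proteins (GBPs) and immunity-related GTPases (IRGs) are interferon-inducible GTPases of the mouse that act inside infected cells. GBPs assemble on bacteria and on pathogen-containing vacuoles, and help to bring bacterial lipopolysaccharide to caspase-11. The effector IRG Iigp1 (Irga6) coats and breaks the membrane of such vacuoles, whereas the regulators Irgm1, Irgm2 and Igtp (Irgm3) sit on the cell's own membranes and keep the effectors inactive there. Interferons reach these genes through STAT and IRF transcription factors, and in dendritic cells LPS starts the same programme through the interferon beta made after TLR4 signalling.

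The 6 genes described here, Gbp2, Gbp3, Igtp, Irgm1, Irgm2 and Iigp1, were taken with all 8 of their Affymetrix probe sets, out of 9473 measured genes and 22690 probe sets. The samples were CD11c+ dendritic cells (DC), which sense microbes and present antigen to T cells, from interleukin 10 deficient (IL10-/-) mice. They were held for 6 h in media, with SEA, with LPS (bacterial lipopolysaccharide) or with SEA/LPS, the 2 agents together, with 1 array for each of these 4 groups. All 4 samples share the IL10-/- genotype and 1 lot, so no wild-type cells enter any comparison. The labels do not spell out SEA and give no dose, tissue of origin or number of animals. With 1 array a group no test was possible and no replicate backs any difference given here. The counts of genes use size only, namely a ratio of at least 2 with the brighter of the 2 arrays over the floor, a signal of 33.3. In these bulk samples fewer cells of a type and less RNA per cell cannot be told apart.

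The arrays carried equal trimmed means, with medians of 45.1 to 53.2 and 57.3% to 61.1% of probe sets above the floor. The 3' over 5' ratio of Gapdh, which tracks RNA integrity, ran from 2.21 in media to 3.12 with SEA/LPS. Hybridisation controls were brighter than in media by 0.55 log2 with LPS and by 0.31 with SEA/LPS. All 9 dendritic cell markers, Itgax and Cd74 among them, exceeded the floor on 3 arrays and 8 did on the SEA/LPS array, where Flt3 was at the floor. Their summed signal ran from 23208 with SEA/LPS to 29379 with LPS. T cells and natural killer (NK) cells are sources of interferon gamma. Of 5 T cell markers, Cd3e, Cd3d and Cd3g were at the floor on all 4 arrays, and the summed signal was 99.3 to 126.6. Thy1 and Cd5 were above the floor in media, with SEA and with LPS (35.6 to 47.6), and at it with SEA/LPS. Of 5 NK cell markers 2 to 4 were above the floor, with a summed signal of 192.3 to 258.6. Ifng itself, the interferon gamma gene, was at the floor on all 4 arrays. Macrophage markers (5 of 5 above the floor on every array) summed to 6185 to 7445. For LPS over media 2 of the 5 lay above 0 and 3 below, with Marco the highest at 1.68 log2 (signal 68.6 and 219.4). B cell markers summed to 92.3 to 118.8, with Cd79b and Pax5 at the floor throughout. Ms4a1 was above the floor on all 4 arrays (38.6 to 54.9), and Cd79a in media (43.3) and with SEA (33.9).

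The summed signal of the neutrophil markers was higher on the arrays with LPS, but not every marker followed it. The 6 on the array summed to 255.3 in media and 294.2 with SEA, against 379.3 with LPS and 406.8 with SEA/LPS. All 4 measured ones lay above 0 for LPS over media, with a median log2 difference of 0.61 and none past 2-fold, and S100a9 and Camp were at the floor throughout. S100a8 and Ltf were brighter on both arrays with LPS than on the others. Mpo and Elane were instead brightest with SEA (71.8 and 66.5), and Mpo with SEA/LPS (51.4) stood just under media (52.4). Plasmacytoid dendritic cells are a DC type known for type I interferon, and the summed signal of their markers was also higher with LPS. Of 3 on the array, Ly6d was at the floor throughout, while Bst2 and Tcf4 brought the summed signal to 335.1 in media and 367.9 with SEA, against 1435.6 with LPS and 1395.7 with SEA/LPS. Bst2 is itself interferon-inducible, and the part of either cell type in the LPS differences was not tested.

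The RefSeq promoter table of mouse assembly GRCm38.p6 held 5 of the 6 genes in 6 windows, and these were searched for 2 interferon motifs because the 6 genes moved together with LPS. The first motif, GAAANNGAAA, is the core of the interferon-stimulated response element (ISRE), to which IRF factors bind. The second, TTCNNNGAA, is the gamma-activated site (GAS), an element of interferon gamma responses. The ISRE letters were read on both strands over 250 bases before the start site. They stood in all 5 genes, though not in the second window of Gbp3, and in 2.98% of the 32851 windows of the table. The GAS letters, which read the same on both strands, stood in Igtp and Irgm2 and in 7.02% of all windows. A match is a description of letters and not of binding.

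The 100 bases before the start site are shown for the window of each gene that held a match, 5′ to 3′ on the gene's own strand, with the matched letters in capitals. They lie at chr3:142620563-142620662 on the plus strand for Gbp2, chr3:142559944-142560043 on the plus strand for Gbp3, chr11:58199456-58199555 on the plus strand for Igtp, chr11:58214877-58214976 on the plus strand for Irgm2 and chr11:48871421-48871520 on the minus strand for Irgm1, all in GRCm38.p6.
Gbp2: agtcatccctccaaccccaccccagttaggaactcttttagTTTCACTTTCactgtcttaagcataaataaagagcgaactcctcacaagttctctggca
Gbp3: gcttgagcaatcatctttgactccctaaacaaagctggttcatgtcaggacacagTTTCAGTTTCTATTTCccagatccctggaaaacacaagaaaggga
Igtp: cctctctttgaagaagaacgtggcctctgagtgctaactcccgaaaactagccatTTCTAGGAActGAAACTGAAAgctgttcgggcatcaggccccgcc
Irgm2: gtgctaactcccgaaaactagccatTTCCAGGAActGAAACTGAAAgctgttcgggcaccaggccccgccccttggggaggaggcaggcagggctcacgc
Irgm1: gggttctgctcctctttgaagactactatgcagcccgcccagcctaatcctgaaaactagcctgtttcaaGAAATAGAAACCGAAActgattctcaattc

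In Gbp2 and Gbp3 the ISRE letters lay on the opposite strand, so the capitals read as their reverse complement, while in the 3 IRG genes they lay on the gene's strand. In Gbp2 the match began 59 bases before the start site. Gbp3 held 2 overlapping matches, the first from base 45 before its first start site, and its second annotated start site had none. Irgm1 likewise held 2 overlapping matches, from bases 30 and 24 before the start. Igtp and Irgm2, which stand next to each other on chromosome 11, both carried the GAS letters 2 bases upstream of the ISRE letters. The 100 bases shown for Igtp were compared with the stretch of Irgm2 shifted by 30 bases, which starts upstream of the Irgm2 bases shown. They were identical at 94 of 100 positions, and the longest identical run was 38 bases.

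**Figure D1:**
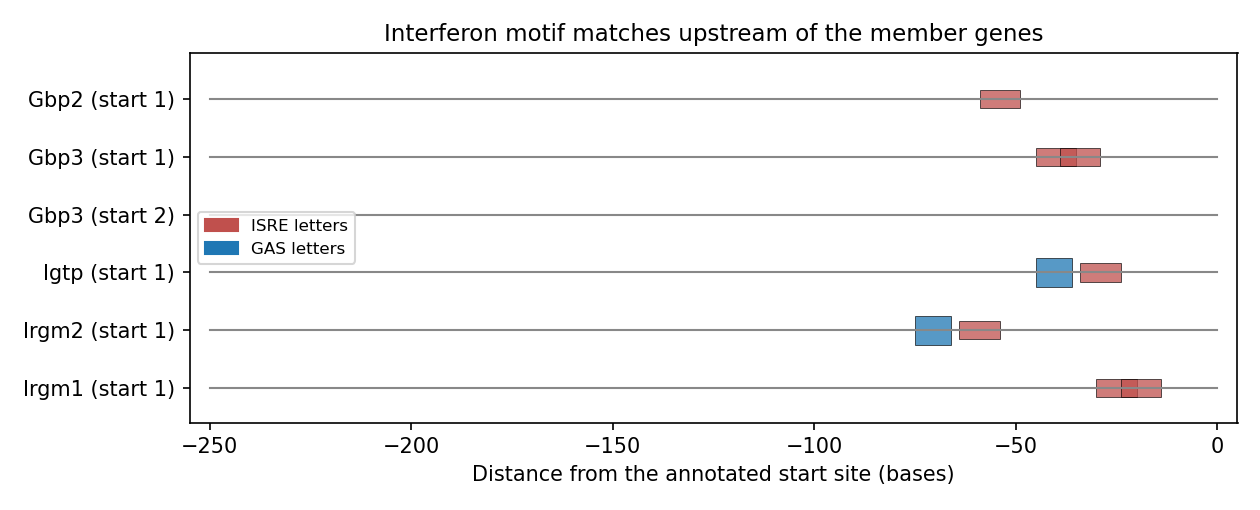
Positions of the ISRE letters (red) and the GAS letters (blue) in the 250 bases before each annotated start site, in bases from the start, with 1 line a window. All matches shown lie within 75 bases of the start site, and the second start site of Gbp3 has none.

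LPS over media asks how far the bacterial stimulus alone moved these genes. All 6 were higher with LPS, by 3.86-fold for Gbp2 up to 13.4-fold for Iigp1. Among all measured genes 6.06% were 2-fold or more higher and 8.43% lower, and none of the 6 was lower. The median log2 difference of the 6 was 2.66, against -0.06 over all genes, whose central 95% ran from -1.50 to 1.68. The 6 genes stood between the 30th (Iigp1) and the 177th (Gbp2) highest of the 9473. They were chosen with earlier results of these data known, so these shares and ranks describe the 6 genes and test nothing.

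The 2 GBPs came from 1 gene cluster on chromosome 3. Gbp2, which in mice acts against Toxoplasma vacuoles, read a signal of 884.8 in media and 787.8 with SEA, against 3412 with LPS and 3405.6 with SEA/LPS. The arrays with LPS stood 3.86-fold and 3.85-fold over media, and the SEA array stood slightly under media. The other probe set of Gbp2, marked _x as able to cross-hybridise, read 733.1, 665, 2141.3 and 2222.4 in the same order, which is the same pattern with a smaller LPS difference (2.92-fold). Gbp3, a neighbour of Gbp2, read 98.6 in media and 124.4 with SEA, against 538.1 with LPS and 1276.7 with SEA/LPS. The array with both agents was the brightest, and of the 6 genes it was the only one 2-fold or more apart between the arrays with LPS and SEA/LPS.

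The 3 regulators of the IRGM group had like profiles. Igtp read 191.4 in media and 227.7 with SEA, against 1091.8 with LPS and 1172.9 with SEA/LPS, a 5.70-fold difference for LPS over media. Irgm1, whose loss in mice weakens defence against several intracellular pathogens, read 168, 178.8, 1241.3 and 1095.2 in the same order, 7.39-fold higher with LPS. Irgm2 read 68.5, 76.8, 481.6 and 613, 7.03-fold higher with LPS. In all 3 the media and SEA arrays were low and the arrays with LPS and SEA/LPS high. By the distance between patterns over the 4 arrays, after each gene's mean log2 was subtracted, Igtp and Irgm1 were the closest pair of the 6 genes (0.39), followed by Irgm1 and Irgm2 (0.41) and by Igtp and Irgm2 (0.50). The farthest pair was Gbp2 and Iigp1 (1.46).

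Iigp1, the effector, had the lowest media signal relative to its LPS signal. Its probe set used here, marked _a for probes shared between transcripts of 1 gene, read 52.4 in media and 95.1 with SEA, against 704.6 with LPS and 679 with SEA/LPS. The second probe set, made from the same target sequence, was at the floor in media (1.2) and with SEA (21) and read 277.4 with LPS and 248.3 with SEA/LPS, at least 8.33-fold higher with LPS than in media. Both probe sets placed the arrays with LPS far above those without.

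**Figure D2:**
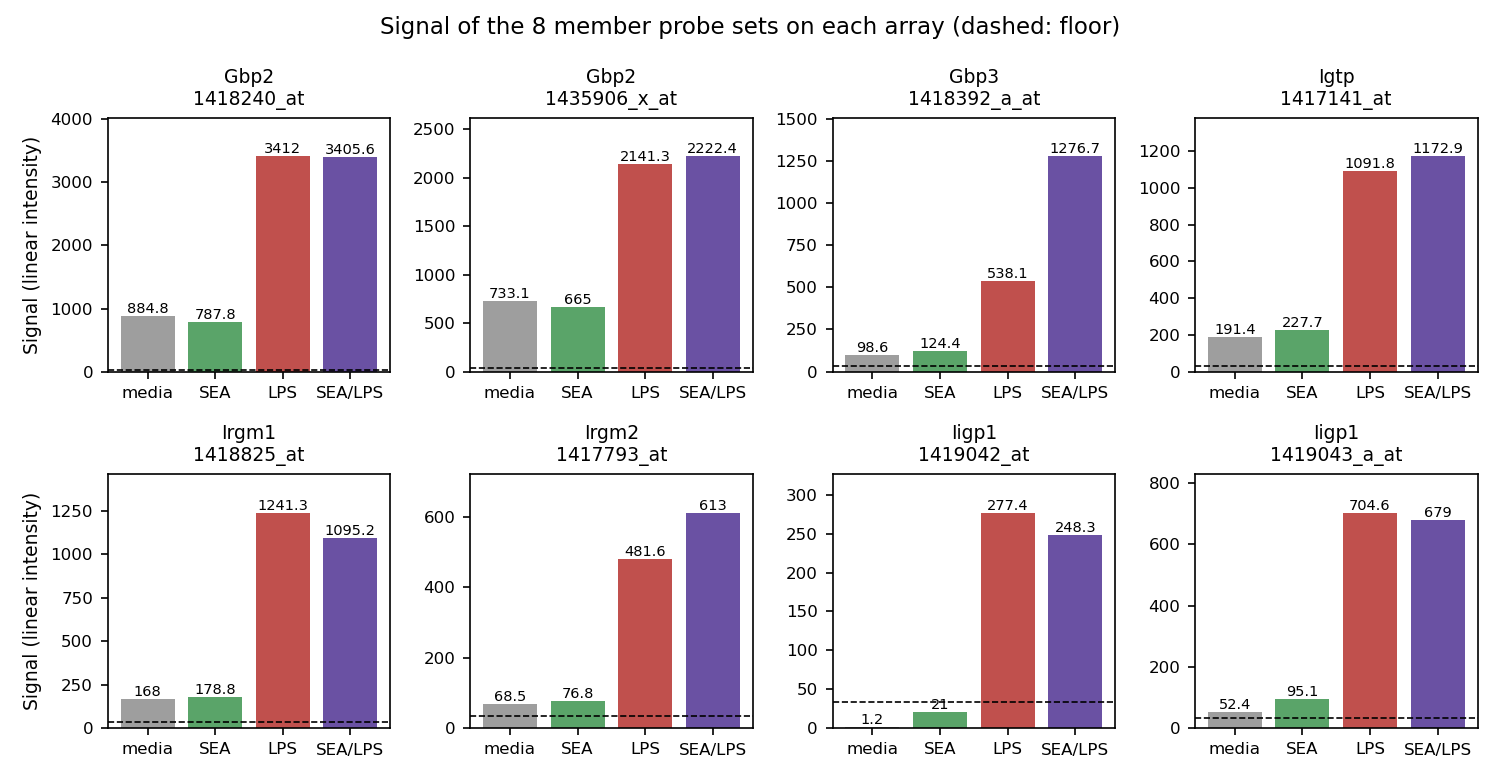
Signal (linear intensity, 1 array a bar) of the 8 probe sets in media, SEA, LPS and SEA/LPS, with the floor of 33.3 dashed and a separate axis for each probe set. Every probe set is higher on the arrays with LPS, and Gbp3 alone has its highest bar with SEA/LPS at more than 2-fold over LPS.

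SEA alone left the 6 genes within 2-fold of media. None of the 6 was 2-fold or more higher, against 0.644% of all genes, and none was lower, against 0.633%. Of the 6, 5 lay above 0 and Gbp2 below (-0.17), and the median was 0.21 against 0 over all genes. Iigp1 had the largest difference, 0.86 log2 or 1.81-fold (signal 52.4 and 95.1), which was the 130th highest of all genes and lay past the upper bound of 0.73 of their central 95%. Its second probe set was at the floor on both arrays and so gives no difference. The media signal of the first was near the floor. The Iigp1 difference was 0.70 without a floor, and 0.43 as the mean over probe sets, which includes the floored one. Gbp3 at 0.34, Igtp at 0.25, Irgm2 at 0.17 and Irgm1 at 0.09 lay inside that range.

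SEA/LPS over LPS asks whether SEA shifts these genes in cells that also meet LPS. For 5 of the 6 genes the arrays with LPS and SEA/LPS lay within 2-fold of each other, and Gbp3 was 2.37-fold higher with SEA/LPS (signal 538.1 and 1276.7). Among all genes 1.39% were 2-fold or more higher and 3.47% lower, and none of the 6 was lower. Gbp3 was the 57th highest gene of this comparison. The log2 differences of the others were 0.35 for Irgm2, 0.10 for Igtp, -0.00 for Gbp2, -0.05 for Iigp1 and -0.18 for Irgm1, and the median of the 6 was 0.05 against -0.01 over all genes. Gbp3 has 1 probe set here, also marked _a, so no second one bears on its difference. Whether that probe set also reads other GBP transcripts was not tested. Scaled to the hybridisation controls, Gbp2, Iigp1 and Irgm1 turned to 0.24, 0.19 and 0.06.

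**Figure D3:**
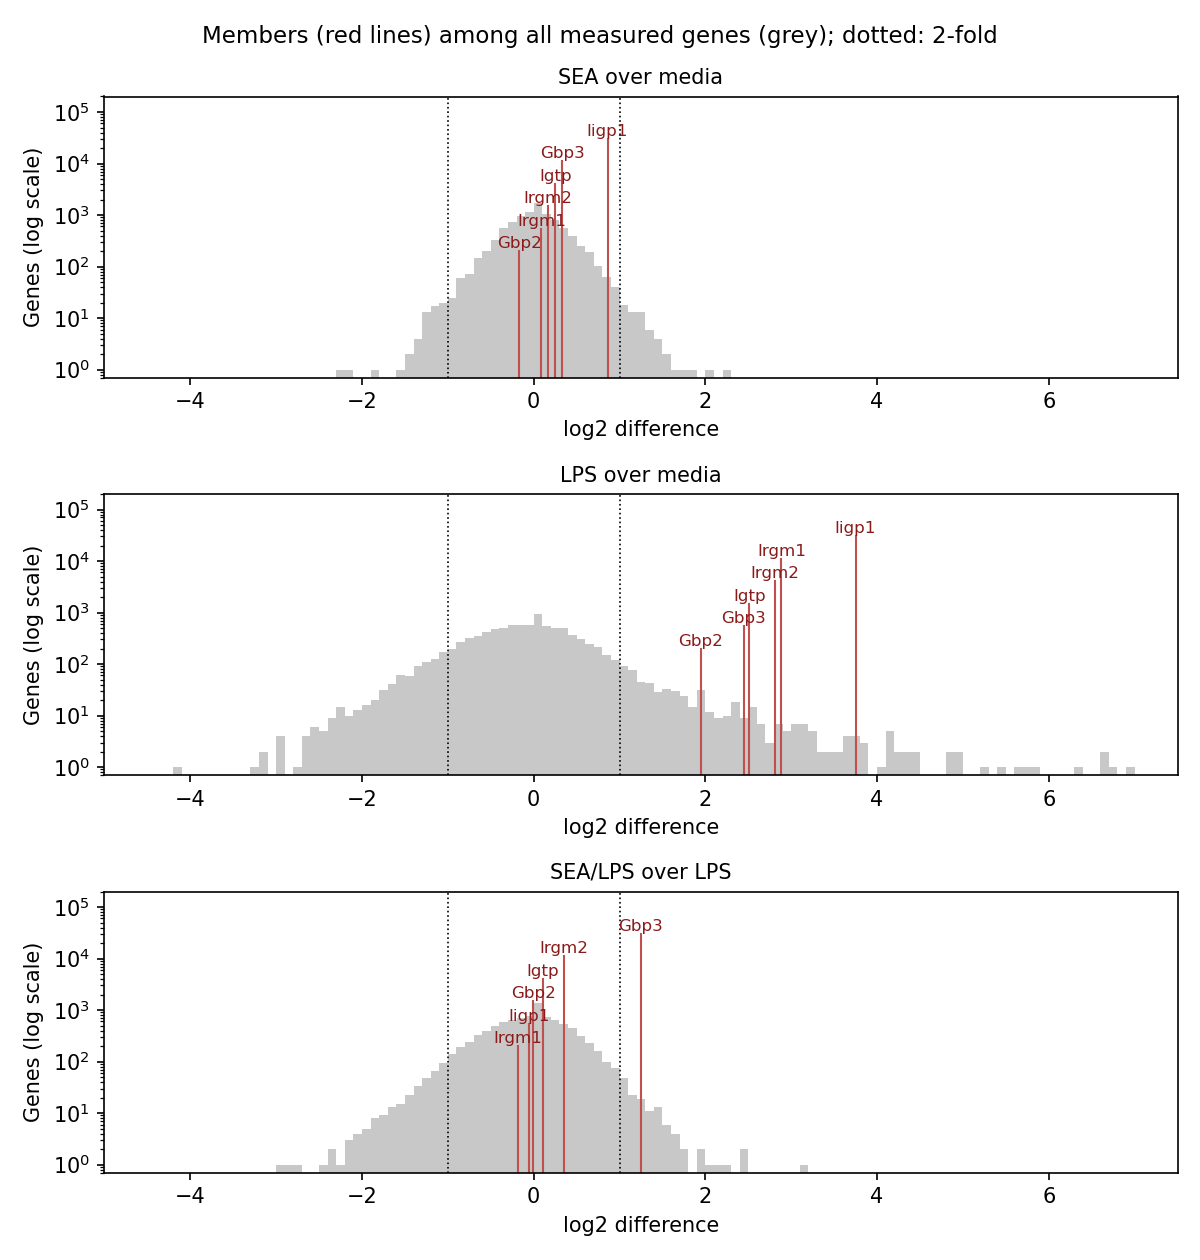
Log2 differences of all 9473 measured genes (grey, gene number on a log axis) and of the 6 genes (red lines, drawn at staggered heights for legibility) in 1 panel for each of 3 comparisons (SEA alone and LPS alone against media, and both agents against LPS), with 2-fold dotted. The 6 genes lie at 1.95 to 3.75 for LPS over media, while for SEA/LPS over LPS Gbp3 at 1.25 is the one past 2-fold.

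With SEA/LPS, all 6 genes were 2-fold or more higher than in media (4.54% of all genes) and than with SEA alone (4.67%). The difference from media was 12.9-fold for Gbp3 and 13.0-fold for Iigp1, then 8.95-fold for Irgm2, 6.52-fold for Irgm1, 6.13-fold for Igtp and 3.85-fold for Gbp2. Against SEA alone the log2 differences ran from 2.11 for Gbp2 to 3.36 for Gbp3. These comparisons share arrays with those above and are no separate evidence. Subtracting each gene's SEA difference without LPS from its SEA difference with LPS gave 0.91 log2 for Gbp3 and -0.91 for Iigp1, and between -0.27 and 0.18 for the other 4 genes. The central 95% of this quantity over all genes ran from -1.31 to 1.06.

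**Figure D4:**
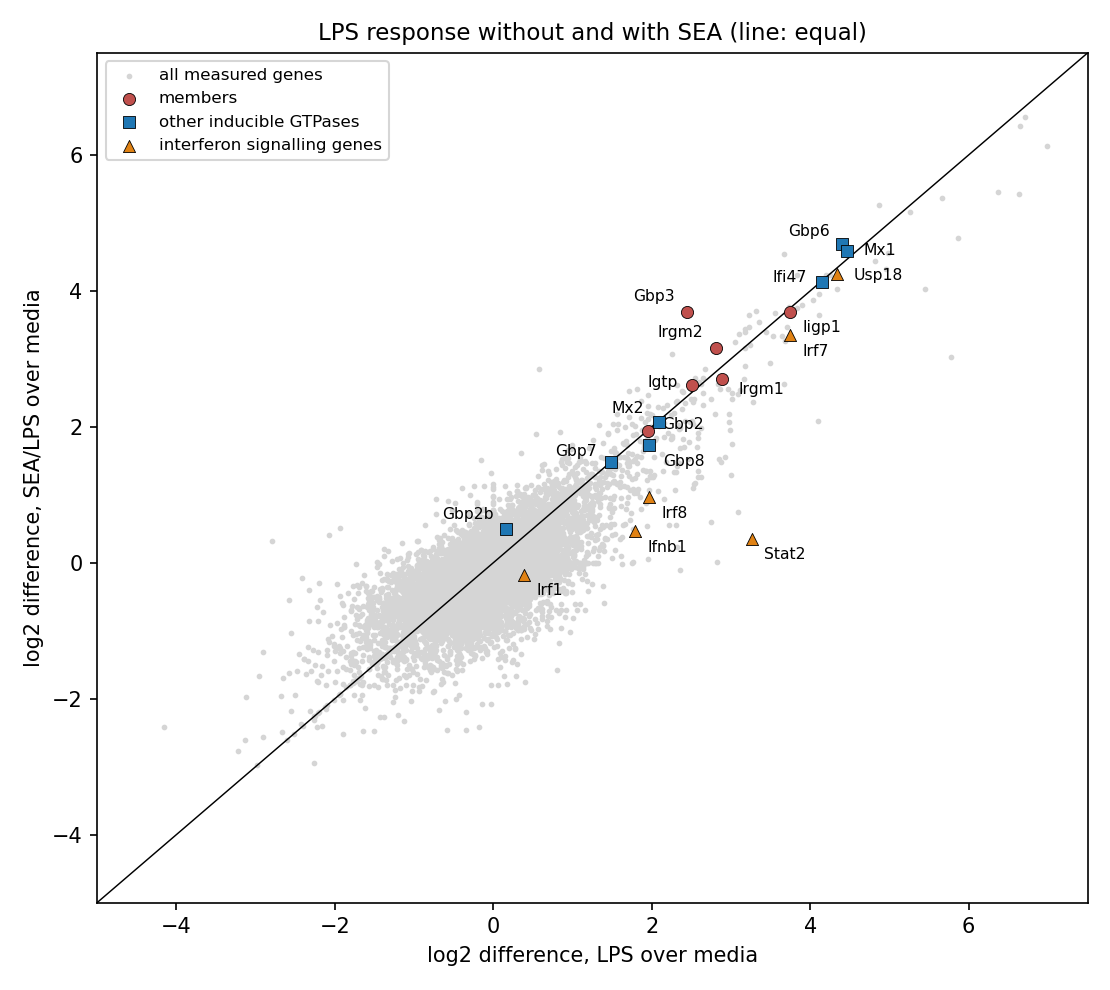
Log2 difference from media of the LPS array (x axis) and of the SEA/LPS array (y axis) for all measured genes (grey), the 6 genes (circles), other inducible GTPases (squares) and genes of interferon signalling (triangles), with the line of equal values. Both axes share the media array. Gbp3 lies above the line at 2.45 and 3.69, while Stat2 lies below it at 3.26 and 0.36.

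Of the other interferon-inducible GTPases, 7 were named by a probe set of their own. With LPS 6 of the 7 were 2-fold or more higher and none lower (median 2.09), and with SEA/LPS against LPS none of the 7 passed 2-fold (median -0.01). The shares of all genes to set beside this list and those that follow are 6.06% higher and 8.43% lower for LPS over media, and 1.39% higher and 3.47% lower for SEA/LPS over LPS. Ifi47 (Irgd), an IRG, read 197.9 in media and 192.8 with SEA, against 3495.5 with LPS and 3459.5 with SEA/LPS. Gbp6, at the floor without stimulus, was at least 21.2-fold higher with LPS. Mx1, the antiviral dynamin-like GTPase, was 22.0-fold higher, Mx2 at least 4.24-fold and Gbp8 at least 3.89-fold.

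The chromosome 3 cluster was not uniform. Gbp7, which flanks Gbp3 on one side, was 2.81-fold and 2.41-fold higher with LPS on its 2 probe sets. With SEA/LPS against LPS these read -0.01 and 0.14, so that the neighbours Gbp7 and Gbp2 had no difference the size of that of Gbp3. Gbp2b, between Gbp3 and Gbp2 in gene order, read 39.9 in media and 32.5 with SEA, against 44.6 with LPS and 56.2 with SEA/LPS, close to the floor on every array. Its window held the ISRE letters as well, from base 137 before the start, and that of Gbp7 held 1 ISRE and 2 GAS matches. The window of Ifi47 held neither motif. Those of Tgtp1 and Tgtp2, which encode another IRG, each held 1 match of both, with the GAS letters 2 bases upstream of the ISRE letters as in Igtp and Irgm2.

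The genes that carry the interferon signal held some with a much lower signal on the SEA/LPS array than on the LPS array. Of 21 measured ligands, receptors, kinases and regulators, 10 were 2-fold or more higher with LPS, against 6.06% of all genes, and none lower (median 0.60), led by Usp18 (4.34), Irf7 (3.75) and Stat2 (3.26). With SEA/LPS against LPS 3 of the 21 were lower, against 3.47% of all genes, and none higher (median -0.10). Stat2, a transcription factor of the type I interferon response, read 78.6 in media and 82.3 with SEA, against 754.6 with LPS and 100.6 with SEA/LPS, and its second probe set, at the floor without LPS, read 211.9 with LPS and 66.5 with SEA/LPS. The SEA/LPS array was thus close to media on the first probe set and between on the second. Ifnb1, the interferon beta gene, read 37.3, 29.8, 129 and 51.4 in the same order, a difference of -1.33 between SEA/LPS and LPS. Irf8 read 489.6, 530.6, 1911.3 and 955.2, so that SEA/LPS stood just past 2-fold under LPS, and its second probe set differed by -1.67. Irf1, which drives GBP genes in mice, read 494.8, 375.8, 646.7 and 438.6 and stayed within 2-fold throughout. On that same SEA/LPS array none of the 6 GTPase genes was 2-fold or more under its LPS signal. As only 3.47% of all genes were, that count is near the share of all genes.

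Antiviral interferon-stimulated genes, which share inducers with the GTPases, had a median of 2.86 for LPS over media, with 21 of 24 members 2-fold or more higher and none lower. Ifit2, at the floor in media, was at least 104.7-fold higher, Oasl1 at least 100.2-fold and Cmpk2 83.1-fold on the probe set used and 41.9-fold on its other one. With SEA/LPS against LPS none of the 24 passed 2-fold in either direction (median -0.06). The largest differences were -0.92 for Cmpk2, 0.46 for Ifitm3 and 0.43 for Parp9. The other probe set of Cmpk2 read -0.25, so its 2 probe sets disagreed in size.

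Caspase-11, encoded by Casp4 in the mouse, is the sensor to which GBPs deliver lipopolysaccharide. Casp4 read 228.8 in media and 176.4 with SEA, against 1019.8 with LPS and 955.8 with SEA/LPS, 4.46-fold higher with LPS. Of 7 measured inflammasome genes 4 were higher with LPS, among them Il1b (4.34) and Il18 (1.47), and none was lower. With SEA/LPS against LPS none passed 2-fold, with Il18 at -0.79, Pycard, the adaptor, at 0.69 and Nlrp3 at 0.54.

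The autophagy conjugation system places IRG and GBP proteins on their target membranes. The list of 15 measured genes held genes of this system and also Becn1, Ulk1 and Sqstm1, which are autophagy genes outside it. None of the 15 passed 2-fold for LPS over media (median -0.27), with Atg5 at -0.92, Gabarapl1 at -0.64 and Sqstm1, an autophagy receptor, at 0.90. With SEA/LPS against LPS 2 of the 15, Becn1 and Sqstm1, were lower and none higher (median -0.05), so no gene of the conjugation system itself passed 2-fold. Becn1, of the complex that starts autophagosomes, was at -1.67 (signal 359.8 and 112.9), and its other 3 probe sets read between -0.77 and -0.50, the last against the floor. Sqstm1 was at -1.04 (signal 5803.1 and 2829.5). Atg10 lay at 0.84.

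Prenylation anchors Gbp2 to membranes. Of 5 measured genes of this pathway none passed 2-fold for LPS over media (median -0.38), with Fnta, the subunit shared by both prenyltransferases, and Rce1, the protease that trims prenylated ends, at -0.58 each. Fntb was above the floor in media (43.3) and at it with LPS. With SEA/LPS against LPS Rce1 was at the floor (22.2) and at least 3.67-fold lower than with LPS (122.2), whereas Icmt at -0.55 and Zmpste24 at 0.43 were within 2-fold.

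The genes whose pattern over the 4 arrays was most like the mean of the 6 were sought among 2352 other genes with a 2-fold range. Trim30a was nearest, at a distance of 0.13, with signals of 384 in media and 473.6 with SEA, against 2447.8 with LPS and 2759.2 with SEA/LPS. Parp14 (0.27), Etnk1 (0.27), Trim21 (0.30) and Trim30d (0.33) followed. For single members the nearest gene was Palld for Gbp2 (0.11), Trim21 for Igtp (0.08), Etnk1 for Irgm1 (0.22), Cfb for Irgm2 (0.30) and Tnf for Iigp1 (0.17). Gbp3 had its nearest gene, Ifi204, at 0.75, farther than any other member's. Distances rest on 4 arrays and describe these arrays only.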

How the data were processed

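The deposited table gives 1 linear intensity per probe set for each of 4 arrays. Judged from the values, the authors had scaled the arrays to 1 trimmed mean (150.1), which hides any difference in total RNA; the sources used here name no software or background step. Probe sets were named through the platform annotation and updated by Entrez identifier against GRCm38.p6 (20351 matched). Array controls (64), probe sets with several symbols (691) or none (1555) named no gene. Signals were floored at the 40th percentile of the pooled arrays (33.3) before log2, and the probe set of highest mean stood for a gene. Differences against a floored array are lower bounds. Calls are by size alone. The procedure was run on simulated data, with seeded changes larger than the 2-fold threshold in signals well above the floor. That run does not bear on smaller changes or on signals near the floor. A total of 10 alternatives was tried.

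The members and lists were chosen with earlier results of these data known. Named genes are the members, related GTPases, Il10, Ifnb1, Ifng, Stat2, Irf1, the 3 largest differences per list for LPS over media and for both agents over LPS, and the genes of nearest pattern (5 to the mean, 1 to each member). A further gene of the rule, left out of this list, is not reported here. Il10, the gene altered in these mice, read 37.9 in media and 52.1 with SEA, against 303.6 with LPS and 93.0 with SEA/LPS; where its probes lie relative to the alteration is not given, so this checks nothing about the labels. The number of arrays limits the precision. Python 3.11.15, NumPy 2.4.6 and pandas 2.3.3 were used.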

Additional observations from a re-analysis of the deposited data

Results flagged for a closer look

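The difference made by SEA had opposite signs without and with LPS on 3 of the 8 probe sets, against 41.4% of the 15827 probe sets above the floor on any array, so the count is near that of all features. With 1 array a group none of these differences was tested. For the probe set used for Iigp1 the value with LPS minus that without was -0.9133 log2 (0.86 for SEA over media, -0.05 for SEA/LPS over LPS). For Irgm1 it was -0.2705 (0.09 and -0.18), and for the _x probe set of Gbp2 it was 0.1943 (-0.14 and 0.05). Iigp1 and Irgm1 no longer had opposite signs under scaling to the hybridisation controls, where their values for SEA/LPS over LPS were 0.19 and 0.06, while the probe set used for Gbp2 then had them (-0.25 and 0.24). With 75th percentile scaling Iigp1 lost them (0.86 and 0.01) and Gbp2 had them (-0.17 and 0.06).

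A probe set that the annotation gives to 2 IRG genes at once was left out above, since it names neither. It was at the floor in media (28.2), gave 40.5 with SEA, against 1340.3 with LPS and 1163.6 with SEA/LPS, and was at least 40.2-fold higher with LPS than in media.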

How the results depend on the processing

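All 6 genes were 2-fold or more higher in LPS over media, SEA/LPS over media and SEA/LPS over SEA under every alternative in which they were measured, the 3-fold threshold included, and single LPS differences ran from 1.40 (Gbp2) to 3.89 (Iigp1). Gbp3 stayed past 2-fold in SEA/LPS over LPS under the 3 scalings (1.14 to 1.49) and without a floor (1.22). The other floors and the mean over probe sets could not move its value, as it has 1 probe set with every signal above those floors. The count of called members in SEA/LPS over LPS fell from 1 to 0 at 3-fold, and to 0 without probe sets marked _x, _s or _a, which leaves Gbp3 out. In that last setting the median for SEA/LPS over LPS was -0.0027, and the median SEA difference with LPS minus without was -0.147; it was 0.0088 as deposited, -0.063 under quantile normalization, 0.073 with 75th percentile scaling and 0.335 with scaling to the hybridisation controls. The latter scaling moved the median for SEA/LPS over LPS from 0.050 to 0.290. At 1.5-fold, 1 member (Iigp1) was called higher in SEA over media, as were 5.11% of all genes. Scaling to the hybridisation controls moved the median of all genes for LPS over media from -0.06 to -0.56 and that of the 6 from 2.66 to 2.11. It moved the share of higher among called genes from 41.8% to 10.5% there, and from 28.6% to 69.1% in SEA/LPS over LPS, where 75th percentile scaling gave 39.5%. Across the settings that kept the 2-fold threshold, genes called higher with SEA numbered 23 to 184 (61 as deposited). In SEA/LPS over LPS they numbered 84 to 299 (132). Signals near the floor limit Iigp1 in media. No paired analysis was possible because each group has 1 array.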
